A study of Mus musculus with 6 samples.

Results

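N6-methyladenosine (m6A) peaks of the brain of Fto knockout mice were examined where they lie most densely along the autosomes. The regions are the windows of 100 kb, aligned to multiples of 100 kb on chromosomes 1 to 19, that held at least 20 listed peaks. They were selected on the number of peak midpoints per window, so that number and every measure of crowding made from the same peaks are given as descriptions, without a test. The interval chr18:37000001-38100000 (mm9), set aside in the selection as the protocadherin interval, was left out. This left 73 of 6623 occupied windows (1.10%), with 1827 of the 29950 listed peaks (6.10%). These were 6.24% of the 29299 peaks on chromosomes 1 to 19.

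The series consists of 6 libraries of midbrain and striatum RNA, microdissected from adult C57BL/6 mice that lack Fto in all tissues. In 3 libraries the rRNA-depleted RNA was immunoprecipitated with an m6A antibody (MeRIP) and 3 are input RNA without immunoprecipitation. All libraries carry the knockout, and wild-type tissue was not analysed here, so nothing in the values below measures the effect of the deletion. The deposited values are 1 list of peak coordinates for all libraries, with no height, strand, gene name or value per library. The spread between mice and the read depth behind a peak are therefore unknown, and neither the tissue nor the loss of Fto was checked against marker genes.

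Fto encodes a demethylase that removes methyl groups from adenosine in RNA, including m6A. In messenger RNA m6A is placed by a methyltransferase complex at short sequence contexts, and is found mostly in long internal exons, around stop codons and in 3′ untranslated regions. A peak can appear only where RNA is transcribed and kept in the library, so a crowded window can hold 1 long, heavily marked transcript or several neighbouring genes that are each transcribed and marked. The list can show how the peaks of a window are grouped, but not which transcript a group belongs to. Gene names were not assigned because the list is on the build mm9 and the gene table used here is on GRCm38.p6.

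The peaks were read at 3 levels. The listed peaks are at most 200 bp long, and peaks that touch were merged into stretches of continuous enrichment. Peaks separated by at most 5 kb were joined into clusters. A window was called led by one cluster where its largest cluster held at least 50% of the window's peaks, and shared otherwise. A cluster is a unit of spacing: it may hold parts of several close genes, and a long gene with distant marked exons may be spread over several clusters.

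Of the 73 windows, 43 were led by one cluster (58.9%) and 30 were shared. This majority depended on how clusters were defined: with peaks joined only within 2 kb, 30 windows were led (41.1%), and 28 were led when 60% of the peaks was required. With peaks joined within 10 kb, 57 were led. Largest clusters together held 1046 of the 1827 peaks (57.3%), second clusters 411 (22.5%) and all remaining clusters 370 (20.3%). The share of the largest cluster ran from 18.2% to 97.9% of a window's peaks, with a median of 54.5% and an interquartile range of 42.3% to 70.0%. The distribution had no gap at 50%: 15 windows lay from 40% to under 50%, and 28 from 50% to under 75%. Led and shared are therefore ends of a range and not separate classes. The window at the centre of that range, with 54.5%, held 12 of its 22 peaks in 1 cluster and 8 in another (chr5:37500001-37600000).

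**Figure D1:**
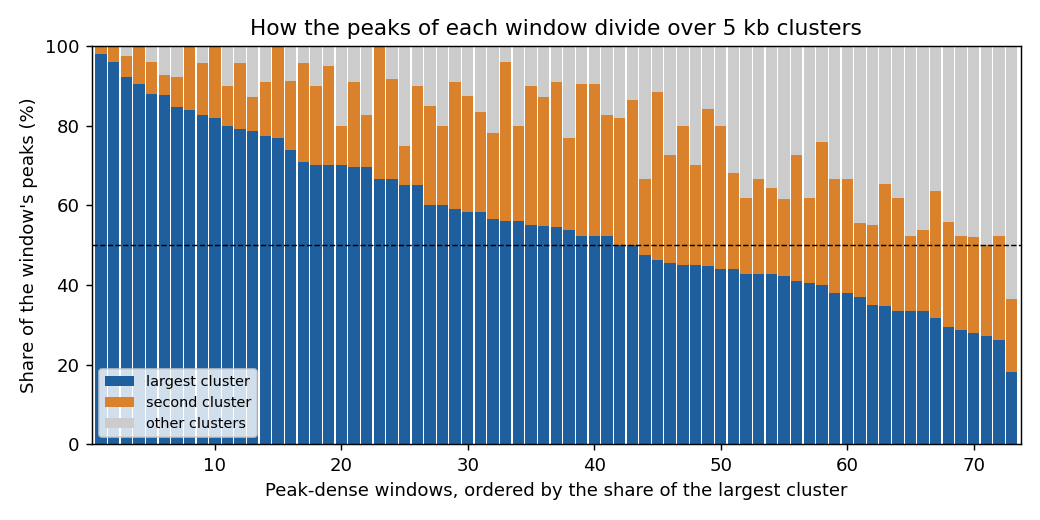
Each bar is 1 of the 73 peak-dense windows, ordered by the share of its peaks (%, vertical axis) in its largest 5 kb cluster; blue is the largest cluster, orange the second and grey the others. The blue part falls in small steps from 97.9% to 26.1%, and then to 18.2% in the last window. It meets the dashed line at 50% after 43 windows.

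Dense windows with only 1 cluster of at least 5 peaks were less common than those with 2 or more. Counting clusters with at least 5 peaks inside the window, 23 windows had 1 such cluster, 38 had 2, 9 had 3 and 2 had 4. The remaining window, chr5:145900001-146000000, had 0. In all, 49 of the 73 windows thus held 2 or more clusters of at least 5 peaks, including windows led by one of them. Only 10 windows reached 20 peaks with the largest cluster alone, and 4 held 20 or more peaks outside the largest cluster. The windows had a median of 4 clusters (range 2 to 9), and the median distance between neighbouring clusters of a window was 13612.5 bp (interquartile range 8437.5 to 24462.5 bp, 224 distances). Of these distances 73 (32.6%) were under 10 kb, close enough that a somewhat wider joining distance would merge them.

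The fullest windows included both forms. Of the 10 windows with 30 or more peaks, 6 were led by one cluster and 4 were shared. The first was chr2:121100001-121200000, with 48 peaks, of which 47 lay in 1 cluster of 13 stretches at chr2:121125001-121138025. Stretches covered 64.5% of the 13025 bp of that cluster, and the 1 peak outside it lay over 50 kb away. This was the window with the largest share in its leading cluster, and also the one with the most peaks per stretch, 3.43.

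Next came chr9:108000001-108100000 with 47 peaks in 22 stretches. Its leading cluster, chr9:108007776-108019625, held 37 of them in 17 stretches over 11850 bp, 50.2% covered by stretches. It had a group of 4 peaks on each side and a last group of 2 peaks. The window chr10:79700001-79800000 had 41 peaks, 36 of them in 11 stretches at chr10:79773801-79783275, which were 64.9% covered. In chr15:76000001-76100000, 35 of 38 peaks lay in 15 stretches at chr15:76001551-76011900, and the other 3 lay in 2 clusters more than 50 kb further on. These 4 clusters, of 35 to 47 peaks, stood above the rest: the next in size, on chromosome 11 at chr11:119862651-119873600, held 24 peaks in 10 stretches over 10950 bp.

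The shared windows among the fullest were built from 5 to 7 clusters of unequal size, none with 50% of the peaks. In chr7:17500001-17600000, 42 peaks formed 5 clusters of 5, 17, 8, 9 and 3 peaks in order of position. The largest of them, at chr7:17530051-17534175, was 4125 bp long and 69.7% covered. In chr2:26200001-26300000, 39 peaks formed 7 clusters, of 3, 5, 13, 1, 7, 2 and 8 peaks. It had 24 stretches, the most of any of the 73 windows, and its longest stretch measured 525 bp. The window chr15:98600001-98700000 had 38 peaks with 2 large clusters, of 15 peaks at chr15:98634526-98637625 and of 17 peaks at chr15:98669976-98681250. The first of these was compact, with 75% of 3100 bp covered, and the second loose, with 25.3% of 11275 bp covered. In chr9:56700001-56800000, 34 peaks were divided into clusters of 9, 10, 3, 9 and 3 peaks, and each of the 3 larger clusters had 6 stretches.

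The last 2 of the 10 were led by one cluster but had a second of at least 5 peaks. In chr7:135000001-135100000, with 33 peaks, the leading cluster held 23 and the second 7. In chr17:25900001-26000000, with 31 peaks, the leading cluster held 17 and the second 10. That leading cluster, chr17:25953476-25970675, was the longest leading cluster of the 73 windows at 17200 bp, and only 13.4% of it was covered by stretches.

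**Figure D2:**
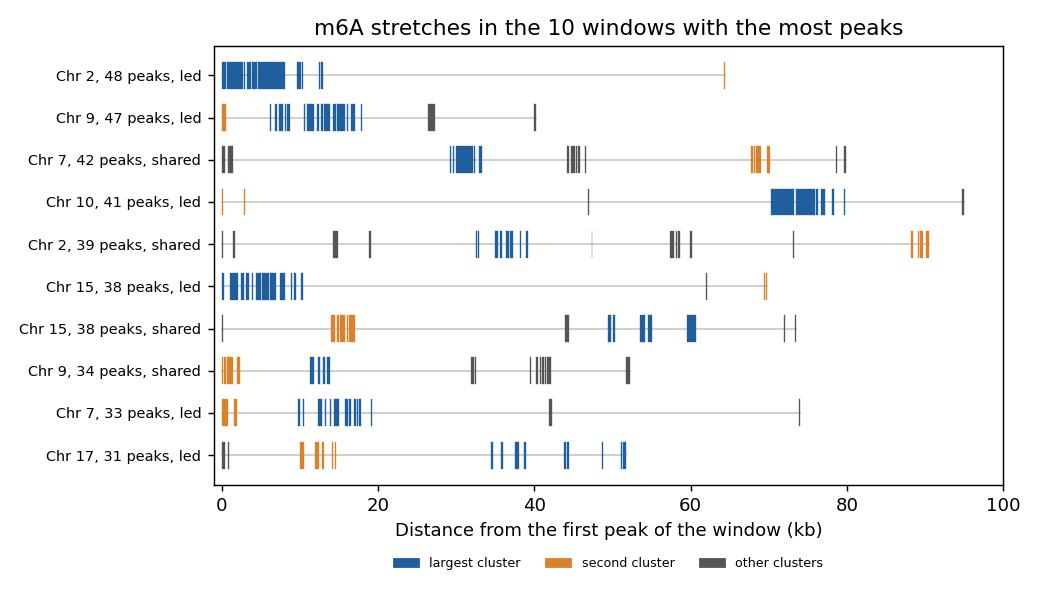
Each line is 1 of the 10 windows with the most peaks, labelled by chromosome, peak number and whether 1 cluster led it; blocks are stretches of touching peaks, placed by distance from the first peak of the window (kb) and coloured by cluster. In the led windows of chromosomes 2, 10 and 15 most blocks (13 of 14, 11 of 15 and 15 of 18) lie in 1 blue group. In the led windows of chromosomes 9, 7 and 17 the blue group holds 17 of 22, 13 of 19 and 11 of 19 blocks. In the shared windows of chromosomes 7, 2, 15 and 9 the blocks lie in several groups.

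The range of cluster share ended in windows of 22 to 48 peaks. After the chromosome 2 window with 97.9%, the highest shares were 96.0% in chr11:119800001-119900000, where 24 of 25 peaks lay in 1 cluster, and 92.1% in the chromosome 15 window with 35 of 38. The lowest share, 18.2%, belonged to chr5:145900001-146000000, whose 22 peaks lay in 9 clusters of 1 to 4 peaks spread over 86625 bp. In chr8:125700001-125800000 the 23 peaks formed 6 clusters, the 2 largest with 6 peaks each (26.1%). In chr10:80000001-80100000 the 22 peaks also formed 6 clusters, the largest with 6 (27.3%). These windows passed the threshold without any cluster of more than 6 peaks.

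Leading clusters differed in compactness between led and shared windows. In the 43 led windows the largest cluster had a median span of 8800 bp (range 2225 to 17200 bp) and a median of 32.2% of its length covered. In the 30 shared windows the median span was 3162.5 bp (range 1425 to 11275 bp) and the median cover 45.9%. The ranges overlapped widely. A cluster that joins more peaks is also longer by construction, so these spans describe the grouping and do not measure transcripts. The most compact leading cluster was in a shared window, at chr15:79314476-79316275, where 9 peaks in 3 stretches covered 97.2% of 1800 bp.

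The number of peaks in a window combines how many stretches it had and how long they were, since a stretch over 200 bp is listed as several peaks. The 1827 peaks formed 986 stretches, with a median of 13 per window (range 8 to 24). Stretches listed as 1 peak numbered 466 and held 25.5% of the peaks, 340 stretches of 2 peaks held 37.2%, and 180 stretches of 3 or more held 37.3%. Among all other stretches of chromosomes 1 to 19 outside the set-aside interval, those of 3 or more peaks held 20.5% of the peaks. In windows of 10 to 19 peaks, the nearest comparison below the threshold, they held 32%. Choosing windows by listed peaks favours long stretches, so part of this order is built in.

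Windows reached the threshold by different mixtures of number and length. Peaks per stretch ran from 1.38 to 3.43, with a median of 1.83; 25 windows had 2 or more and 7 had fewer than 1.5. The fewest stretches, 8, were found in chr7:19500001-19600000 (21 peaks) and chr8:127400001-127500000 (20 peaks). The window chr7:112700001-112800000 followed with 9 stretches for 20 peaks. The most stretches were found in windows already described: 24 in chr2:26200001-26300000, 22 in chr9:108000001-108100000 and 21 in chr7:17500001-17600000. At the low end of peaks per stretch was chr5:145900001-146000000, with 16 stretches for 22 peaks, the same window that had the most clusters. With each stretch counted once, only 4 windows would hold 20 or more, the 3 with most stretches and chr9:56700001-56800000, which also had 21.

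**Figure D3:**
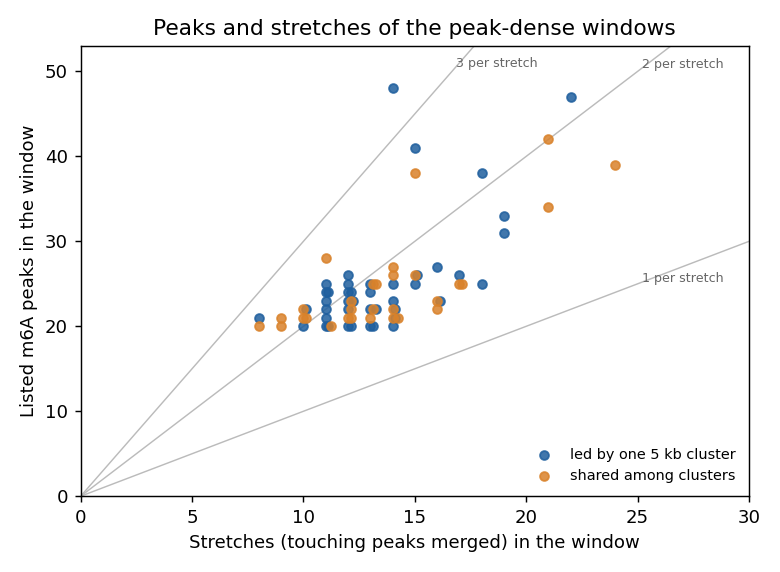
Each point is 1 of the 73 windows, with its stretches on the horizontal axis and its listed peaks on the vertical axis; blue windows are led by one cluster, orange are shared, points at the same position are set slightly apart, and grey lines mark 1, 2 and 3 peaks per stretch. The chromosome 2 window with 48 peaks in 14 stretches lies above the line of 3, and led and shared windows overlap elsewhere.

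The 986 stretches of the dense windows averaged 289.9 bp ± 220.4 (SD), and the middle 50% of them measured 150 to 350 bp, around a median of 225 bp. In windows of 10 to 19 peaks 4531 stretches averaged 268.3 bp ± 179.7 (SD). All 17809 other stretches of chromosomes 1 to 19, which include these, averaged 229.6 bp ± 140.7 (SD). Lengths were much alike in led windows (576 stretches, 296.0 bp ± 237.2 SD) and in shared windows (410 stretches, 281.5 bp ± 194.3 SD), both with a median of 225 bp. Stretches of one window are not independent, and listed peak number follows stretch length, so these differences were not tested.

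Long stretches were found in most of the dense windows, but not in all. Of the 986 stretches 76 (7.71%) were 600 bp or longer, against 264 of 4531 (5.83%) in windows of 10 to 19 peaks and 509 of 17809 (2.86%) among all other stretches. The 76 made up 13% of the 586 stretches of that length on chromosomes 1 to 19, while the dense windows held 5.21% of all autosomal stretches. A long stretch is listed as several peaks and helps its window pass the threshold, so part of this difference is built in. The 76 long stretches lay in 51 of the 73 windows, so 22 dense windows had none. The longest was the stretch of 2075 bp at chr7:51716376-51718450, which supplied 11 of the 22 peaks of chr7:51700001-51800000. In this window 1 continuous stretch thus gave as many peaks as the rest together. The second and the fourth, of 1875 bp and 1525 bp, both lay in the leading cluster of the chromosome 2 window with 48 peaks and together gave 18 of its peaks. The third, of 1650 bp and listed as 9 peaks, began within 1 kb of the start of the leading cluster in chr10:79700001-79800000. The fifth, of 1475 bp at chr19:5081226-5082700, gave 8 of the 10 peaks in the largest cluster of chr19:5000001-5100000, a shared window of 27 peaks.

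Stretches in the dense windows also lay close together. The nearest other stretch was a median of 225 bp away (interquartile range 75 to 843.8 bp), and 755 of 986 (76.6%) had one within 1 kb. In windows of 10 to 19 peaks the median was 300 bp and 69.4% had one within 1 kb. Among all other stretches of chromosomes 1 to 19 the median was 750 bp and the share 52.8%. A neighbour within 200 bp was present for 473 stretches in dense windows (48.0%). The share was 44.0% in windows of 10 to 19 peaks and 31.7% among all other stretches. Within 5000 bp, the joining distance of clusters, 892 of the 986 stretches had a neighbour (90.5%). The share was 83.9% in windows of 10 to 19 peaks and 65.0% among all other stretches, so lone stretches were less common in dense windows. Of the 297 clusters, as counted inside these windows, 98 consisted of 1 stretch (33.0%). Some of these were parts of larger clusters cut by a window border.

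Pooled over broad classes of fullness, windows led by one cluster were a smaller share of the fuller windows. Among all 6540 occupied windows below 20 peaks, 94.0% were led by one cluster, but most of these had few peaks and a median of 1 cluster. In the 624 windows of 10 to 19 peaks, 73.9% were led, with a median of 3 clusters and a median share of 60% for the largest. In the 73 dense windows 58.9% were led, with a median of 4 clusters. Next to the threshold this order was not kept: 13 of 22 windows with exactly 19 peaks and 8 of 11 with exactly 20 were led. Fuller windows have more room for a second cluster by the counting alone, so the order of the pooled classes is a description. Within the 73 windows, peak number went with the number of stretches (Pearson's r = 0.67 across windows) and showed no such relation with the number of clusters (r = -0.02). These coefficients describe 73 windows chosen for their peak number, whose peaks and stretches are counted from the same list, and no p-value is given.

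In the 5 windows of the chromosome 18 interval with 20 or more peaks, which were left out, 185 peaks had 1.5 peaks per stretch pooled over windows, against 1.85 in the 73 windows. Of these 5 windows 1 was led by one cluster.

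The threshold passed through a continuous range. The 11 windows with exactly 20 peaks had 8 to 14 stretches (median 11), covered 2775 to 3425 bp and were led by one cluster in 8 cases. The 22 windows with exactly 19 peaks had 6 to 14 stretches (median 10), covered 2500 to 3475 bp and were led in 13 cases. The 2 sets overlapped in their ranges of stretches and of covered bases. Most dense windows lay near the threshold, with 55 of the 73 at 20 to 25 peaks and a median of 23.

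The position of the grid also changed which windows were included. With the grid shifted by 50 kb, 80 windows held 20 or more peaks, but only 43 of the 73 original windows overlapped one of them. Of the 1827 peaks, 961 (52.6%) lay in dense windows on both grids. Leading clusters were seldom cut by the grid: in 5 of the 73 windows the largest cluster continued beyond the window, as in chr2:25100001-25200000, where 7 of its 13 peaks lay inside. Conversely, not every rich cluster lay in a dense window. Of 11 autosomal clusters with 20 or more peaks outside the chromosome 18 interval, 10 lay in dense windows. The other, chr13:100191826-100205375, had 21 peaks in 14 stretches and was divided by a window border. Of 259 clusters with 10 or more peaks, 62 had a peak in a dense window.

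Dense windows were found on 15 of the 19 autosomes. Chromosome 7 had the most, 11 windows with 279 peaks, followed by chromosome 9 with 8 windows and 220 peaks, and chromosomes 2 and 17 with 7 windows each (212 and 165 peaks). These 4 chromosomes held 33 of the 73 windows (45.2%), beside 26.9% of autosomal peaks and 29.4% of autosomal protein-coding genes in the GRCm38.p6 gene table. They were picked as the 4 with most windows, so part of this difference is built in. Chromosomes 10 and 11 had 6 windows each, chromosomes 5, 8 and 15 had 5 each, chromosome 19 had 4 and chromosome 1 had 3. Chromosomes 4 and 6 had 2 each, and chromosomes 3 and 14 had 1.

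Chromosomes 12, 13 and 16 had none, and chromosome 18 had none outside the interval left out. Their fullest windows held 17, 17, 19 and 16 peaks, so chromosome 16 missed the threshold by 1 peak. With the threshold at 15 peaks all 19 autosomes had a dense window, and with the grid shifted by 50 kb 18 of them had one, so most of these absences depended on where the windows began. Chromosome 18 had 510 protein-coding genes in the gene table and chromosomes 12 and 16 had 679 each, the lowest numbers among the autosomes. Chromosome 13, with 829 genes, had more than chromosomes 15 (776 genes, 5 windows) and 19 (705 genes, 4 windows).

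By the share of a chromosome's own peaks, the order changed somewhat. Dense windows held 12.5% of the peaks of chromosome 7, 12.4% of those of chromosome 9, 11.8% on chromosome 17, 11.3% on chromosome 15 and 10.5% on chromosome 10. They held 9.44% on chromosome 19 and 8.54% on chromosome 2, whose windows made up a smaller part of its 2482 peaks. On chromosome 11, which had 2449 peaks, the share was 5.51%, and on chromosome 3 it was 1.92%. Chromosomes 2 and 11 thus had similar totals, but chromosome 2 held 212 peaks in its dense windows and chromosome 11 held 135. Per 1000 protein-coding genes, chromosome 9 had 6.66 dense windows, chromosome 17 had 6.61, chromosome 15 had 6.44, chromosome 10 had 5.99, chromosome 19 had 5.67 and chromosome 7 had 5.42. The counts per chromosome are small, and no test over chromosomes was made.

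The 2 forms of window were spread unevenly over chromosomes. On chromosome 11, 5 of 6 windows were led by one cluster, on chromosome 9 6 of 8 and on chromosome 17 5 of 7. On chromosome 15, 4 of 5 windows were shared, and on chromosome 8 3 of 5. On chromosome 7, 6 were led and 5 shared. With at most 11 windows on a chromosome, these divisions are counts and not a difference shown between chromosomes.

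**Figure D4:**
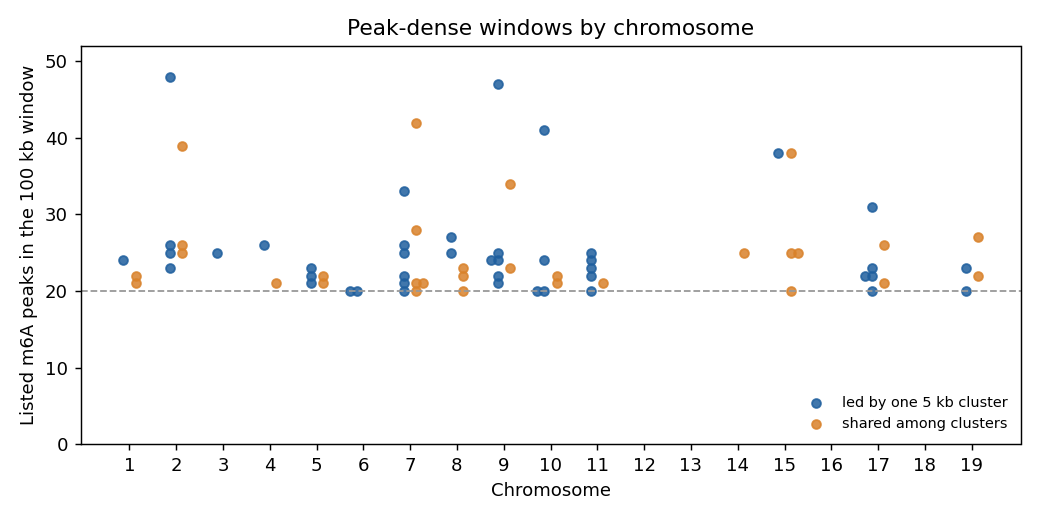
Each point is 1 of the 73 peak-dense windows, by chromosome (horizontal axis) and number of listed peaks (vertical axis); blue windows are led by one cluster, orange are shared, equal values are set side by side, and the dashed line is the threshold of 20 peaks. Chromosome 7 carries the most points, 11, and chromosomes 12, 13, 16 and 18 carry none.

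Dense windows seldom touched one another, and 45 of the 73 had no other dense window within 1 Mb. Only 1 pair was adjacent, chr17:34000001-34100000 with 23 peaks and chr17:34100001-34200000 with 20, and their leading clusters were separate. Another dense window lay within 1 Mb of 28 of the 73 windows (38.4%), and no such share of other windows is given beside it. Joined over 1 Mb, the 73 windows formed 55 groups, of which 45 were single windows. The largest group had 5 windows on chromosome 10, from chr10:79100001 to chr10:80800000, with 128 peaks and 20 to 41 per window. Of these 5 windows 3 were led by one cluster.

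Groups of 3 windows were found at 5 places. On chromosome 9, from chr9:108000001 to chr9:108800000, 3 windows held 95 peaks and all were led. On chromosome 2, from chr2:25100001 to chr2:26300000, 3 windows held 90 peaks and 1 was led. On chromosome 7, from chr7:134300001 to chr7:135100000, 3 windows held 80 peaks, and from chr7:51700001 to chr7:53100000 another 3 held 63. On chromosome 11, from chr11:59500001 to chr11:60600000, 3 windows held 67 peaks and all were led. In contrast, the window with the most peaks, on chromosome 2, had no other dense window within 1 Mb.

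The windows directly on both sides were not used in the selection of a window, although 2 of them were dense themselves. Windows next to a dense window held a median of 5 peaks (interquartile range 2 to 10, 146 neighbours), and 18 of the 146 were empty (12.3%). Next to windows of 10 to 19 peaks the median was 3, and 31.6% were empty. Next to all windows below 20 peaks the median was 1, and 49.9% were empty. When the 10 neighbours that share a 5 kb cluster with their dense window were left out, the median over the other 136 was still 5.

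The higher level around dense windows extended beyond the next window. At 200 kb it averaged 6.05 peaks per window, against 4.07 around windows of 10 to 19 peaks and 2.29 around all windows below 20. At 1000 kb the averages were 3.53, 2.68 and 1.81. The averages around dense windows include other dense windows, and no value without them is given. Another dense window lay within 1 Mb of 28 of the 73 windows, so part of the higher level comes from selected windows. The windows directly next to a dense window varied from 0 to 23 peaks. The window chr9:106700001-106800000, with 25 peaks, had 0 on both sides, as had chr10:13800001-13900000 with 20. The window chr10:80700001-80800000, with 20 peaks, had 19 and 12. How far gene density, transcript level or the sharing of genes across window borders moves with these counts was not tested, because the list gives none of them.

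**Figure D5:**
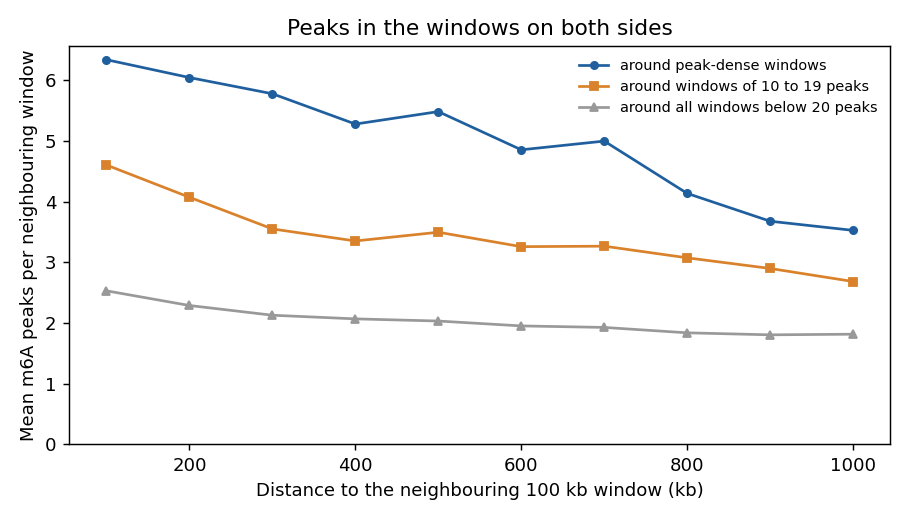
Points are the mean number of listed peaks in the 100 kb windows on both sides (vertical axis, empty windows included) by distance from the starting window (kb, horizontal axis), for the 73 peak-dense windows (blue), for windows of 10 to 19 peaks (orange) and for all occupied windows below 20 peaks outside the interval left out (grey, which includes the orange). The blue line falls from 6.34 at 100 kb to 3.53 at 1000 kb and lies above the others at each distance. Neighbours that are dense windows themselves are included.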

How the data were processed

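The values used are the start and end of each peak in 1 deposited list (3 columns, no header), other numbers than measured levels. Build mm9 and the tools BWA 0.6.2-r126 and SAMtools 0.1.18 are named per the submitters' processing notes. The program that called the peaks, its threshold and how replicates were combined were not given in the sources used here. Positions are printed 1-based in mm9.

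Peaks were grouped with Python 3.11.15, numpy 2.4.6 and pandas 2.3.3, by code tested on simulated data. A peak belongs to the window of its midpoint. Clusters were built over the whole list and counted inside each window. Named windows are the 10 with most peaks, and the 3 with the highest and lowest share in the largest cluster and with the fewest and most stretches (ties by chromosome and position). Named clusters and stretches follow their size, and windows that illustrate a sentence elsewhere were chosen after their values were seen. The windows and thresholds were chosen with earlier results of these data known. The planned description of gene content and sequence was not run, since no mm9 annotation was used here. From the GRCm38.p6 gene table only gene numbers per chromosome were taken.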

Additional observations from a re-analysis of the deposited data

Results flagged for a closer look

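Windows outside chromosomes 1 to 19 were not part of the selection. The fullest window of chromosome X held 19 peaks, 1 below the threshold. The mitochondrial chromosome, which fits within 1 window, held 23. The unplaced contig assigned to chromosome 1 had a window of 12. These values are given because they lie in otherwise unused data, and the list has no control value to set beside them.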

How the results depend on the processing

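The number of dense windows depended on the threshold and on what was counted. It was 73 at 20 peaks, 217 at 15 peaks and 28 at 25 peaks, and 4 when each stretch was counted once. Counting covered bases instead (at least 3007 bp) gave 75 windows, 69 of them among the 73. The number led by one cluster fell from 43 to 28 when 60% of the peaks was required. It was 30 with clusters joined within 2 kb and 57 within 10 kb. Of 19 alternatives, 15 gave a value within 1.5 times of the one reported, the last 2 and the covered bases among them. This compares the size of a value only. With clusters joined within 2 kb, led windows were no longer the majority (41.1%). The dense windows of the grid shifted by 50 kb overlapped only 43 of the 73. The alternative on genes per window was not run. Fullness of a window depends on read depth and transcript level, which the list does not give. No paired analysis was possible because peaks carry no value per replicate, and for the same reason no replicate was left out.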
